A study of Mus musculus with 30 samples.

Results

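The collagen genes of the subventricular zone (SVZ) and of the striatum were followed across 4 groups of mice in which neural precursor cells (NPCs) had or had not been ablated. A gene was taken as a member when its symbol had the form Col, number, a, number and its level was above 1 CPM, the counts of a gene scaled by the total of its library, in at least 3 libraries of the tissue. Each count table listed 44 such symbols. In the SVZ 34 of them passed, among 16375 genes tested, and in the striatum 36 passed, among 15419. The 2 tissues shared 31 members, 39 symbols passed in at least 1 tissue and 5 passed in neither.

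Both tissues were taken from each of 15 mice and sequenced apart, which gave 30 libraries. The ablated group held 5 NestinTK+GCV+ mice, named A1 to A5 here, which carried the thymidine kinase (TK) transgene and received ganciclovir (GCV), a prodrug that the kinase turns into a poison of dividing cells. The controls were 3 wild-type littermates given ganciclovir (NestinTK-GCV+, G1 to G3), 3 wild-type littermates given phosphate-buffered saline (NestinTK-PBS+, P1 to P3) and 4 carriers given saline (NestinTK+PBS+, T1 to T4). All groups were C57Bl/6 adults with a subcutaneous minipump. The labels gave no age or sex for a mouse. The transgene is driven by the second intron enhancer of rat Nestin. The SVZ samples are labelled as neural precursor cells, but they were dissected tissue: markers of medium spiny neurons, the projection neurons of the striatum, summed to 2724 to 10205 CPM in them, against 83.1 to 395 CPM for neuroblast markers.

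Collagens are extracellular matrix proteins built from 3 chains wound into a triple helix, and some are assembled from chains encoded by different genes. Fibrillar collagens such as types I, III, V and XI form the banded fibrils of connective tissue. Collagen IV forms the sheet-like network of basement membranes, which in the brain surround blood vessels and underlie the pia and the choroid plexus, and collagens XV and XVIII are basement membrane proteoglycans. Collagen VI forms beaded microfilaments next to basement membranes. Brain parenchyma holds little fibrillar collagen, and much of it is made by fibroblasts of the meninges, the perivascular space and the choroid plexus stroma. Choroid plexus and meningeal content is therefore given beside the collagen values.

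Total counts ran from 8360810 to 21056005 in the SVZ libraries and from 2626962 to 4693441 in the striatum libraries. In 3 SVZ libraries, P1, P2 and T1, transthyretin (Ttr), the most abundant transcript of the choroid plexus epithelium, took 4.49, 9.88 and 9.83% of all counts, against at most 0.0789% in the other 12. The 12 choroid plexus markers summed to 46672, 102407 and 101893 CPM in these 3 and to 18 to 850 CPM elsewhere. The 13 meningeal fibroblast markers summed to 97.4, 161 and 94.7 CPM in them and to 2.27 to 62.8 CPM elsewhere. All 3 were from control mice given saline. Of the 12 choroid plexus markers, all 12 were below 0 between the ablated mice and the pooled controls, and 6 were called lower. In the striatum, T4 stood apart with 1553 CPM of choroid plexus markers against 13.8 to 56.7 CPM, 108 CPM of meningeal markers against 46.3 to 79.2 CPM, and 4209 CPM of medium spiny neuron markers against 8064 to 10479 CPM. Cortical neuron markers reached 384 and 662 CPM in the SVZ libraries of A2 and G3, and 529 and 314 CPM in the striatum libraries of G3 and T2. In bulk tissue, fewer cells of a type and less RNA per cell cannot be told apart.

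The 4 genes whose values the results turn on most are shown first by the genomic sequence just upstream of their start sites. Col6a1 and Col11a1 were called higher in the ablated mice in the striatum. Col8a1 and Col4a4 were called lower in them in the SVZ, Col4a4 against the NestinTK+PBS+ mice only. These SVZ calls had no adjusted p under 0.05 by edgeR and were lost without P1, P2 and T1. The runs are the RefSeq reference sequence on GRCm38.p6, read 5′ to 3′ on the strand of the gene, from at most 250 bases before the RefSeq start and without bases of any annotated exon, which left out the 124 bases next to the Col6a1 start. Capitals mark CCAAT (or ATTGG on the opposite strand) and the GC box GGGCGG (or CCGCCC), and TATAAA was searched on both strands as well and was in none of the 4 runs.
Col6a1, chr10:76726169-76726294, minus strand: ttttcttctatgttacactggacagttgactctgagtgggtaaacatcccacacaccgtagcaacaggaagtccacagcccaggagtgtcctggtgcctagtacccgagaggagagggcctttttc
Col11a1, chr3:114030290-114030539, plus strand: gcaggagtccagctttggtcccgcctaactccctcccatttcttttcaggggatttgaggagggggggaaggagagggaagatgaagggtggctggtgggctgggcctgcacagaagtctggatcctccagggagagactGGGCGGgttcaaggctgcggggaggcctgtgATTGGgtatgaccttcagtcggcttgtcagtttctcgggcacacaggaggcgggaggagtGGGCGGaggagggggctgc
Col8a1, chr16:57754738-57754987, minus strand: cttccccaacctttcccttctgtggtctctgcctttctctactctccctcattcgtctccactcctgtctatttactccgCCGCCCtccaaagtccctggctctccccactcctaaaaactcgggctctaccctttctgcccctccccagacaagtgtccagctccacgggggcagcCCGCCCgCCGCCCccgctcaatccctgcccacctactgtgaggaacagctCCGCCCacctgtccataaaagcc
Col4a4, chr1:82586850-82586920, minus strand: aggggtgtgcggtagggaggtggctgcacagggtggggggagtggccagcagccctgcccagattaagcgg
The Col11a1 run held a CCAAT box that began 79 bases before the start site and GC boxes 110 and 19 bases before it. The Col8a1 run held 4 GC boxes, 170, 73, 66 and 23 bases before the start site. None of the 3 motifs was found in the other 2 runs. The Col4a4 run is the whole gap to its neighbour Col4a3, whose start lies 72 bases away on the opposite strand. Among 32851 RefSeq windows from 250 bases before to 50 bases after a start, 13.616% held TATAAA, 37.408% CCAAT and 35.658% GGGCGG. Of 38 such windows for 35 collagen symbols, 5, 13 and 23 held them.

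**Figure D1:**
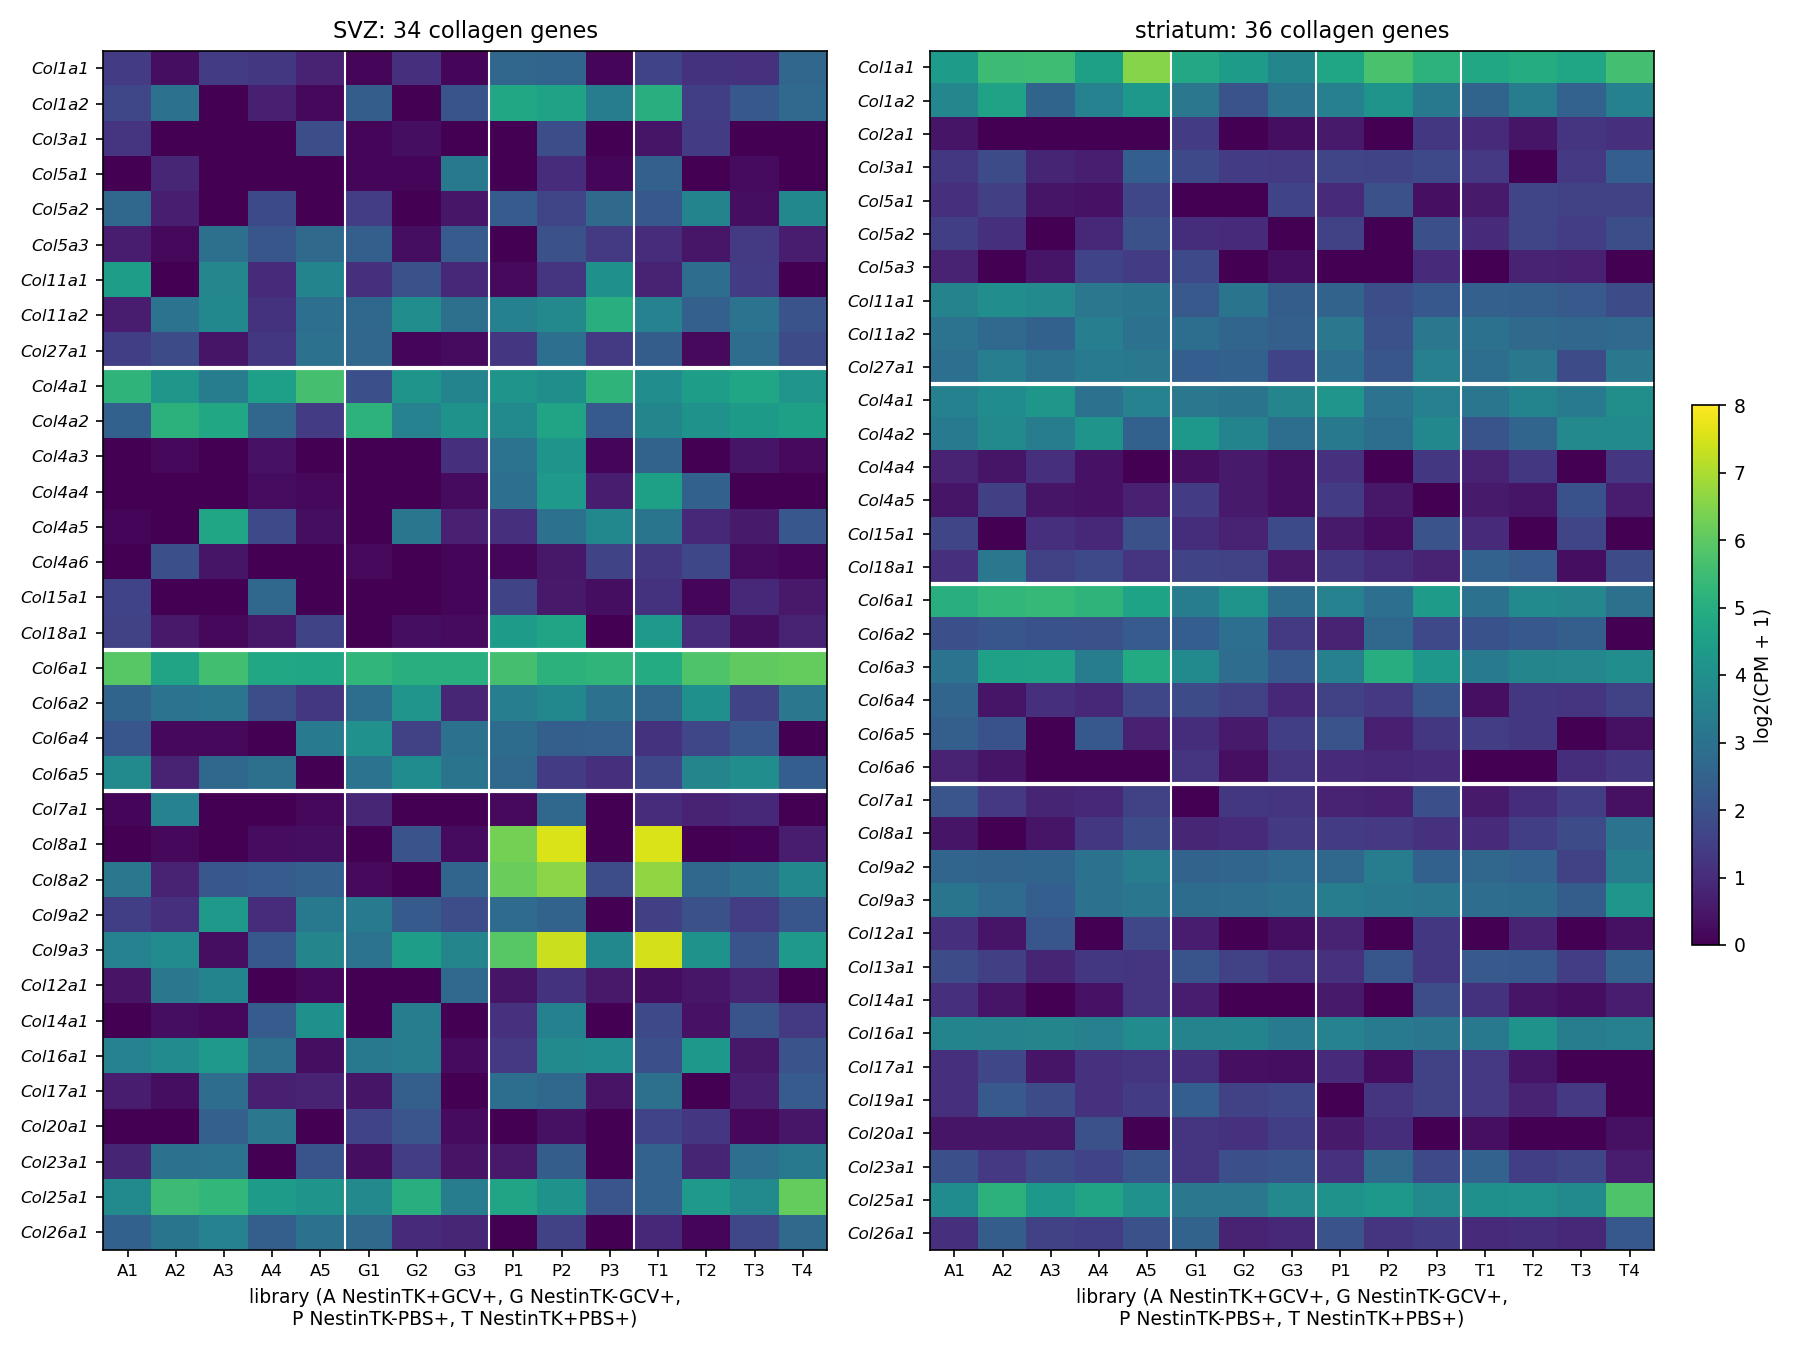
Level of every collagen gene that passed the filter in each library, as log2(CPM + 1), for the SVZ on the left and the striatum on the right, with genes in rows grouped from top to bottom as fibrillar, basement membrane, collagen VI and others, and libraries in columns by group. Col8a1, Col8a2 and Col9a3 are brightest in the SVZ libraries P1, P2 and T1, and Col6a1 is brighter in A1 to A5 than in the other striatum libraries.

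Collagen genes were low and uneven between libraries in both tissues. In the SVZ the median member had a mean of 3.75 CPM, against 16.1 CPM for the median gene tested, and 24 of the 34 (70.6%) were at 0 in at least 1 library, against 32% of all genes. Their coefficient of variation across the 15 SVZ libraries had a median of 1.25, against 0.605 for all genes. In the striatum the median member had a mean of 2.01 CPM, against 14.6 CPM, 18 of 36 (50%) were at 0 in at least 1 library, against 17.8%, and the median coefficient of variation was 0.676, against 0.297. Per kilobase of exon, the collagen genes with the highest mean level in the SVZ were Col6a1 at 9.44 CPM per kb, Col9a3 at 9.17, Col8a2 at 4.81, Col8a1 at 3.88, Col4a1 at 2.77 and Col4a2 at 2.48. Not divided by length, the means of Col9a3, Col8a2 and Col8a1 over all 15 SVZ libraries were 35.3, 21.6 and 30.4 CPM. Without the 3 Ttr-rich libraries they dropped to 10.8, 4.48 and 0.376 CPM, against 133, 90.0 and 151 CPM within those libraries. The striatum counts come from the 3′ ends of transcripts and do not scale with length, so they were not divided by exon length.

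Some members passed the filter only through control libraries. In the SVZ, Col8a1, Col4a4, Col4a3 and Col5a1 were above 1 CPM in no NestinTK+GCV+ library, and in the striatum the same held for Col2a1 and Col6a6. For these members the filter itself favoured a lower ablated level. The symbols that did not pass were Col2a1, Col24a1, Col6a3, Col6a6, Col9a1, Col10a1, Col13a1, Col19a1, Col22a1 and Col28a1 in the SVZ, and Col24a1, Col4a3, Col4a6, Col8a2, Col9a1, Col10a1, Col22a1 and Col28a1 in the striatum.

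The first question was whether collagen genes differed in the SVZ after ablation. Comparisons used edgeR's quasi-likelihood test over all genes of the tissue with Benjamini-Hochberg adjustment, and a gene was called at a nominal p of at most 0.01 with at least a 2-fold change. A single collagen gene of 34, Col8a1, was called between the NestinTK+GCV+ mice and the 10 pooled controls, and it was lower. Over all genes 260 of 16375, or 1.59%, were called, 61 higher and 199 lower. The median log2 fold change of the members was -0.02, against -0.03 for all genes, with 17 above 0 and 17 below. By class, the median was -0.79 for the 9 fibrillar members, 0.02 for the 8 of basement membranes, -0.45 for the 4 of collagen VI, all 4 of which were below 0, and 0.61 for the 13 others. No member had an adjusted p under 0.05, where 1 gene of 16375 did. An unadjusted p under 0.05 was found for 5 members, and for 1607 of the 16375 genes, by edgeR. By DESeq2 4 members were called, where 492 genes were, and by limma-voom 1 member, which was not Col8a1, where 171 genes were. Without the 3 Ttr-rich libraries 0 members were called by edgeR, where 176 genes were.

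Col8a1 encodes a chain of the network-forming collagen VIII, found in vessel walls and in Descemet's membrane of the eye. In the SVZ it was at 0, 0.118, 0, 0.208 and 0.239 CPM in A1 to A5. It was at 0, 3.17 and 0.165 CPM in G1 to G3, at 80.1, 184 and 0 CPM in P1 to P3, and at 188, 0, 0.0603 and 0.555 CPM in T1 to T4. The 3 Ttr-rich libraries stood above all the others, and they held 99.4% of its summed counts, not scaled for library totals. The other 7 controls spanned the range of the ablated mice. Since no ablated library had more than 3 counts, the difference is given as a bound: the ablated mean was at least 132-fold lower than that of the pooled controls, with a floor of 3 counts per library (adjusted p = 0.348 by edgeR). Col8a1 passed the filter through control libraries alone, which favoured a lower ablated level. The call was lost without A1 or A3, by limma-voom and with the mean log2 CPM of the choroid plexus markers as a covariate. Without the 3 Ttr-rich libraries the fitted log2 difference was -2.10 (adjusted p = 0.895 by edgeR).

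The Ttr-rich libraries were the highest for 7 members: in Col8a1, Col4a3, Col18a1, Col4a4, Col8a2, Col9a3 and Col1a2 all 3 were above all 12 others. They held 95.0% of the summed counts of Col4a3, 93.4% of Col18a1, 91.9% of Col4a4, 87.6% of Col8a2, 82.7% of Col9a3 and 75.4% of Col1a2. These shares were not scaled for library totals. P1, P2 and T1 held 13256158, 21056005 and 13481348 counts, against 8360810 to 16586696 in the other 12. How many of all 16375 SVZ genes had these 3 libraries above the other 12 was not counted. Whether collagen genes stand out in this was therefore not tested. In all, the collagen members summed to 437 to 723 CPM in the 3 libraries and to 137 to 281 CPM in the other 12. By class, the sum of the network-forming, fibril-associated, transmembrane and remaining members was 251 to 506 CPM in them and 33 to 126 CPM elsewhere, while the collagen VI sum was 38.5 to 69.9 CPM in them and 32.4 to 84.7 CPM elsewhere, which overlapped. The part of choroid plexus tissue in these values was not tested apart from the slope on the marker level given next.

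The slope of each gene on the mean log2 CPM of the choroid plexus markers was fitted with the 4 groups held, and a slope was called at an adjusted p under 0.05. Of the 34 SVZ members 1 was called, Col8a1, which rose by 1.43 on the log2 scale (SE 0.193) per doubling of the marker level (adjusted p = 0.00196 by edgeR), where 34 genes or 0.208% of all were called. Its slope without the 3 Ttr-rich libraries was 0.53 (adjusted p = 1), and the call was also lost without T1 alone. Col8a2, the partner chain of collagen VIII, had a slope of 0.55 (SE 0.141, adjusted p = 0.229), Col9a3, a chain of the fibril-associated collagen IX, 0.41 (SE 0.115, adjusted p = 0.312), and Col18a1, the precursor of endostatin, 0.67 (SE 0.224, adjusted p = 0.51 by edgeR). On the meningeal fibroblast level 16 genes or 0.0977% were called, and no member was. Col8a1 had a slope of 3.21 there (SE 0.602, adjusted p = 0.0505 by edgeR).

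**Figure D2:**
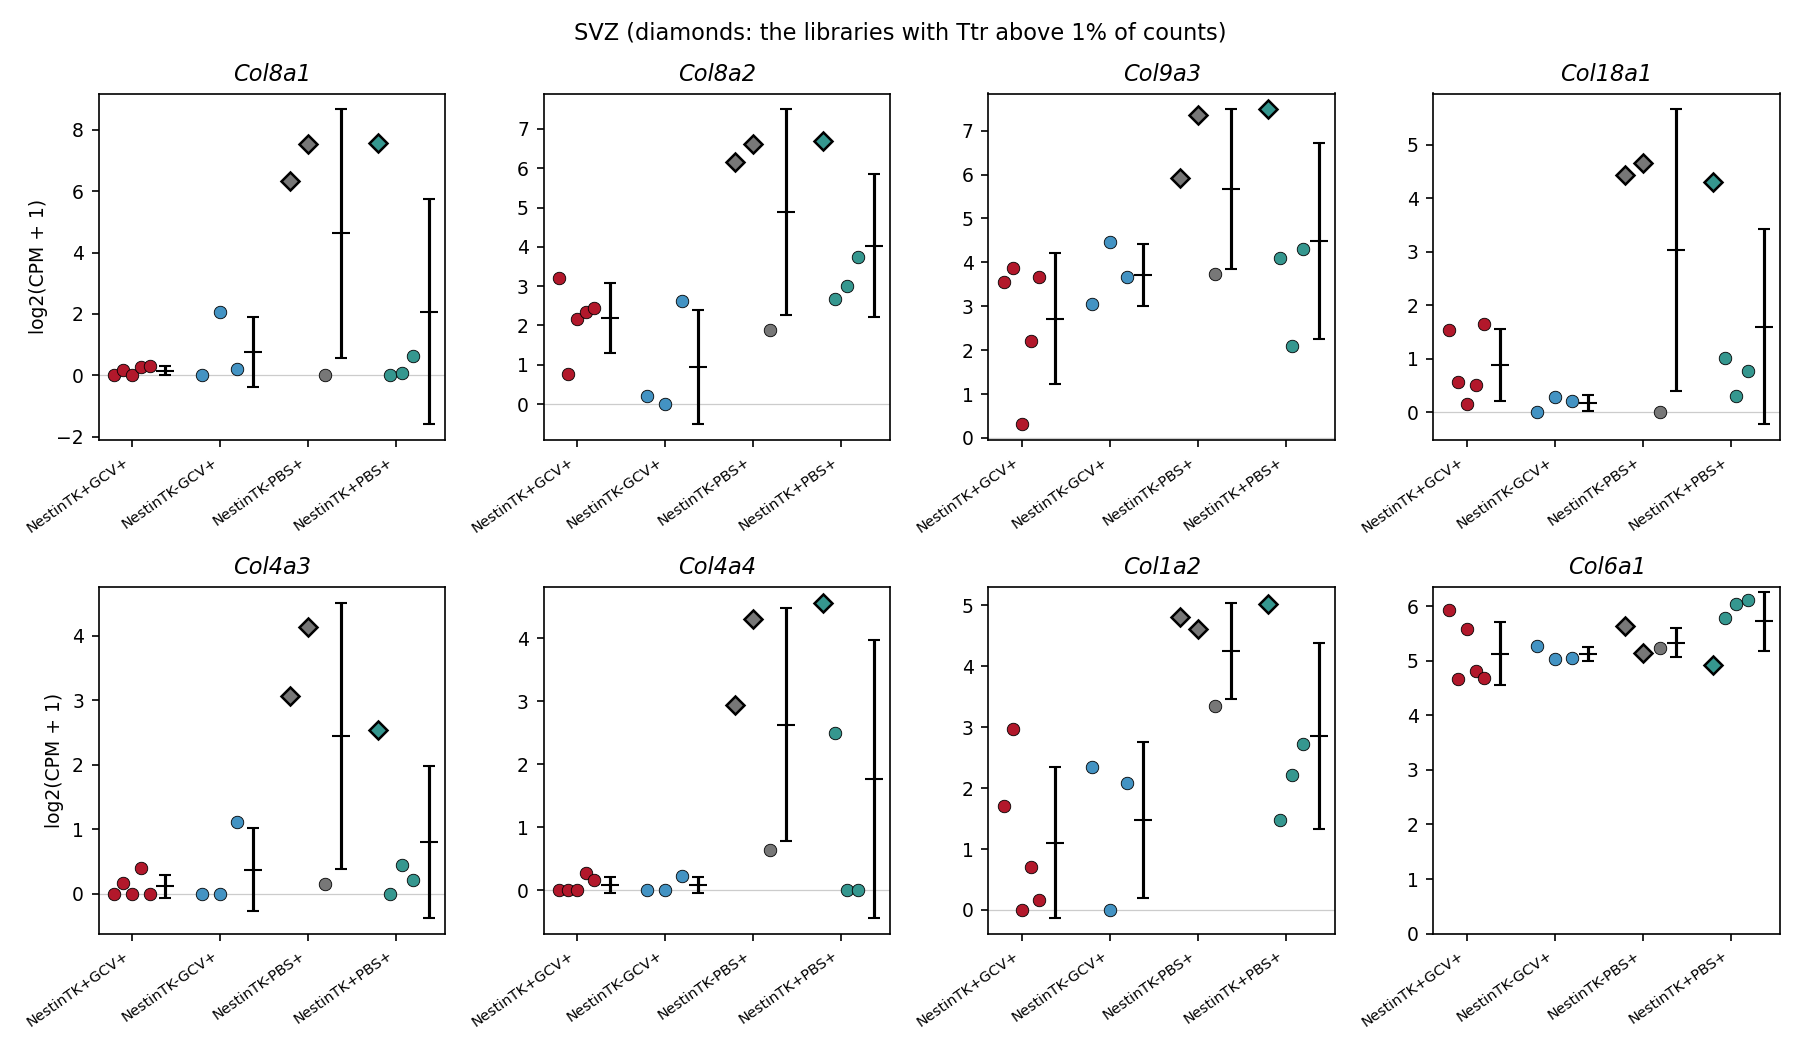
Level of 8 collagen genes in the SVZ as log2(CPM + 1), by group, with a point per library, a short bar for the group mean and whiskers of 1 SD (n = 5, 3, 3 and 4 from left to right), and diamonds for the 3 libraries with Ttr above 1% of counts. The diamonds lie above all other points in 7 of the 8 panels, and in the panel of Col6a1 they lie among the others.

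Of the 8 basement membrane members of the SVZ none was called against the pooled controls. Col4a4, which with Col4a3 and Col4a5 forms the collagen IV of specialised basement membranes, had at most 0.208 CPM in the ablated mice and was at 0, 0 and 0.165 CPM in G1 to G3, at 6.64, 18.7 and 0.559 CPM in P1 to P3, and at 22.6, 4.63, 0 and 0 CPM in T1 to T4. Col4a4 passed the filter through control libraries alone, which favoured a lower ablated level, and P1, P2 and T1 held 91.9% of its counts. Its ablated mean was at least 15.5-fold lower than the control mean (adjusted p = 0.385 by edgeR). Col4a3 reached 7.32, 16.6 and 4.82 CPM in P1, P2 and T1 and at most 1.16 CPM elsewhere. Col18a1 was at 20.6, 24.4 and 18.8 CPM in those libraries and at most 2.15 CPM elsewhere, with a log2 difference of -2.63 (SE 1.59, adjusted p = 0.628).

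Col4a1 and Col4a2, the chains of the ubiquitous vascular collagen IV, lie head to head on opposite strands of chromosome 8 and share 22 exon bases. Col4a1 was at 35.6, 18.0, 9.55, 22.0 and 48.9 CPM in A1 to A5 and from 2.86 to 35.9 CPM in the controls, and Col4a2 was at 4.62, 34.4, 26.8, 5.21 and 1.67 CPM and from 3.80 to 35.2 CPM. Both overlapped between the groups. The log2 differences were 0.73 (SE 0.447, adjusted p = 0.632) for Col4a1 and -0.07 (SE 0.603, adjusted p = 0.988) for Col4a2. The 2 genes were not high in the same SVZ libraries. A5 had 48.9 CPM of Col4a1 and 1.67 CPM of Col4a2, P3 had 35.9 and 3.80 CPM, and G1 had 2.86 and 35.2 CPM. The endothelial markers summed to 137 to 299 CPM and the mural markers to 113 to 212 CPM over the SVZ libraries, both in a narrower range than either gene.

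Of the 4 collagen VI members of the SVZ none was called. Col6a1, the α1 chain found in every collagen VI molecule, was at 59.6, 24.3, 46.8, 27.0 and 24.8 CPM in A1 to A5, a mean of 36.5 ± 15.9 CPM (SD, n = 5). The controls had 29.5 to 68.4 CPM with a median of 36.9 and a mean of 43.8 ± 14.4 CPM (SD, n = 10). The groups overlapped, and the log2 difference was -0.13 with a 95% interval from -0.67 to 0.42. Col6a1 also had the smallest coefficient of variation of the SVZ members, at 0.357. Col6a2, the α2 chain, had a mean of 4.88 ± 2.79 CPM (SD, n = 5) in the ablated mice and 8.38 ± 5.22 CPM (SD, n = 10) in the controls, with a log2 difference of -0.64 (SE 0.694, adjusted p = 0.838).

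Of the 9 fibrillar members of the SVZ none was called. Col1a2, a chain of type I collagen, was at 26.9, 23.4 and 31.5 CPM in P1, P2 and T1, and from 0 to 9.16 CPM in the other 12 libraries, with a log2 difference of -2.28 (SE 1.23, adjusted p = 0.573). Col11a2, a chain of type XI collagen, had 0.563 to 12.4 CPM in the ablated mice and 3.09 to 31.7 CPM in the controls, with a log2 difference of -0.80 (SE 0.715, adjusted p = 0.79). Neither gene separated the groups.

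Among the 13 other members, Col8a2 was at 8.22, 0.71, 3.46, 4.06 and 4.43 CPM in A1 to A5, at 70.9, 96.8 and 102 CPM in P1, P2 and T1 and at most 12.4 CPM in the other controls. Its log2 difference was -2.80 (SE 1.25, adjusted p = 0.474 by edgeR). Col9a3 was at 10.7, 13.6, 0.239, 3.65 and 11.6 CPM in A1 to A5, at 59.7, 162 and 178 CPM in P1, P2 and T1 and at 3.26 to 21.0 CPM in the other controls, with a log2 difference of -2.51 (SE 0.968, adjusted p = 0.406 by edgeR). A stretch of 234 exon bases of Col9a3 is shared with Tcfl5 on the other strand. Col26a1, which encodes an Emilin-domain protein of the matrix, had the opposite sign. It was at 4.62, 7.69, 10.7, 4.38 and 7.06 CPM in A1 to A5 and from 0 to 5.86 CPM in the controls, so that G1 at 5.80 CPM and T4 at 5.86 CPM overlapped the ablated mice. Its log2 difference was 2.04 (SE 1.04, adjusted p = 0.544 by edgeR), and it was not called.

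The 4 groups were then compared 2 by 2 in a fit with a mean for each. Ganciclovir in carriers (NestinTK+GCV+ against NestinTK+PBS+) gave calls for 2 of 34 SVZ members, Col4a4 and Col8a1, both lower, where 195 genes or 1.19% were called. The ablated means were at least 19.8-fold lower for Col4a4 (adjusted p = 0.618 by edgeR) and at least 137-fold lower for Col8a1 (adjusted p = 0.618 by edgeR). Both bounds rest largely on T1: without it the fitted log2 differences were -0.54 for Col8a1, whose other NestinTK+PBS+ libraries were at 0, 0.0603 and 0.555 CPM, and -4.21 for Col4a4. Both genes passed the filter through control libraries alone. Both calls were lost without T1, that of Col4a4 also without A1, A2, A3 or A5, and both by limma-voom. The transgene under ganciclovir (NestinTK+GCV+ against NestinTK-GCV+) called no member, where 154 genes or 0.940% were called, and DESeq2 and limma-voom called 0. An unadjusted p under 0.05 was found for 2 members, and for 1220 of all genes, by edgeR. The members' median was 0.56, with 24 above 0 and 10 below, against 0.03 for all genes. Beside it, 9 of 12 choroid plexus markers (median 2.05), 8 of 10 meningeal markers (median 1.5) and 8 of 8 endothelial markers (median 0.87) were above 0 with none called, and their part in the members' values was not tested. Among the groups that hold no ablated mouse, ganciclovir in wild-type mice (NestinTK-GCV+ against NestinTK-PBS+) called 2 members, Col8a2 and Col18a1, where 174 genes or 1.06% were called. The members' median was -1.13, with 24 of 34 below 0, against -0.03 for all genes, and beside it 8 of 12 choroid plexus markers were called lower and all 10 meningeal markers were below 0. Col8a2 differed by -5.13 on the log2 scale, with 1.75 ± 2.91 CPM under ganciclovir and 56.8 ± 48.6 CPM under saline (SD, n = 3 each, adjusted p = 0.646 by edgeR), and Col18a1 at least 56.6-fold lower (adjusted p = 0.646). Without the 3 Ttr-rich libraries Col8a2 was at -0.71 and Col18a1 at 3.55 on the log2 scale, and neither was called. Each call was also lost without P1 or P2 alone, without G1 or G2 alone, and for Col18a1 without G3. The transgene under saline (NestinTK+PBS+ against NestinTK-PBS+) called no member, where 32 genes or 0.195% were called. The interaction of genotype and treatment called no member, where 137 genes or 0.837% were called. In both comparisons 0 members had an unadjusted p under 0.05 by edgeR, where 441 and 833 genes did. DESeq2 and limma-voom called 0 members as well. No SVZ gene had an adjusted p under 0.05 in any of the 5 comparisons by edgeR.

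In the striatum, 2 of the 36 members were called between the NestinTK+GCV+ mice and the pooled controls, Col6a1 and Col11a1, and both rose. Over all genes 107 of 15419, or 0.694%, were called, 70 higher and 37 lower. At an adjusted p under 0.05 the same 2 members passed, where 28 genes or 0.182% did. The median log2 fold change of the members was 0.18, against 0.00 for all genes, with 23 above 0 and 13 below. By class, the median was 0.33 for the 10 fibrillar members, 0.11 for the 6 of basement membranes, 0.30 for the 6 of collagen VI and 0.19 for the 14 others.

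Col6a1 was at 32.3, 38.6, 40.0, 35.6 and 24.0 CPM in A1 to A5. It was at 9.32, 16.7 and 6.15 CPM in G1 to G3, at 10.7, 6.60 and 20.6 CPM in P1 to P3, and at 6.99, 13.3, 12.1 and 6.75 CPM in T1 to T4. The lowest ablated mouse, A5, stood above the highest control, P3, so the groups did not overlap. The ablated mean was 34.1 ± 6.35 CPM (SD, n = 5) and the control mean 10.9 ± 4.84 CPM (SD, n = 10). The log2 difference was 1.59 (SE 0.237, adjusted p = 0.0052 by edgeR). Col6a1 was the single collagen gene of 36 whose ablated libraries all lay above all controls, as did 57 genes or 0.370% of all in the striatum and 5 genes or 0.0305% in the SVZ. It was called under each of the 8 other settings and in each of the 15 fits that left out a library, with log2 differences from 1.52 to 1.74 and adjusted p from 0.000801 to 0.0414 in the latter. With the meningeal fibroblast level as a covariate the difference was 1.59 (adjusted p = 0.0012), with the choroid plexus level 1.55 (adjusted p = 0.0011) and without T4 1.52 (adjusted p = 0.00256 by edgeR).

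None of the other 5 collagen VI members was called. Col6a2, the obligate partner of Col6a1 in the molecule, had 2.91 to 3.90 CPM in the ablated mice and 0 to 6.53 CPM in the controls, with means of 3.24 ± 0.41 CPM (SD, n = 5) and 3.18 ± 2.05 CPM (SD, n = 10), and a log2 difference of -0.04 (SE 0.507, adjusted p = 0.989). Col6a3, which encodes the large α3 chain and the endotrophin peptide, was at 7.27, 22.8, 23.6, 9.20 and 28.9 CPM in A1 to A5 and from 3.64 to 30.9 CPM in the controls, with a log2 difference of 0.47 (SE 0.357, adjusted p = 0.69). Col6a4, Col6a5 and Col6a6 encode chains that can take the place of the α3 chain. The log2 differences were 0.13 for Col6a4 (adjusted p = 0.962) and 0.87 for Col6a5 (adjusted p = 0.697 by edgeR), and Col6a6 was at 0 to 0.727 CPM in the ablated mice and 0 to 1.41 CPM in the controls. Through Col6a1, the collagen VI members summed to 52.2 to 68.5 CPM in the ablated mice and to 15.5 to 47.1 CPM in the controls.

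Col11a1, the α1 chain of type XI collagen, which nucleates thin fibrils, was at 10.9, 14.2, 12.6, 8.01 and 7.47 CPM in A1 to A5. It was at 3.73, 7.49 and 4.10 CPM in G1 to G3, at 4.85, 2.77 and 3.64 CPM in P1 to P3, and at 4.49, 4.32, 3.67 and 2.53 CPM in T1 to T4. The lowest ablated mouse and the highest control, G2, were level, so the groups just overlapped. The means were 10.6 ± 2.9 CPM (SD, n = 5) and 4.16 ± 1.37 CPM (SD, n = 10), and the log2 difference was 1.28 (SE 0.26, adjusted p = 0.0392 by edgeR). The call held under the 8 other settings and in all 15 fits that left out a library, with log2 differences from 1.16 to 1.43, while the adjusted p ran up to 0.176 without A2. The partner chain Col11a2 had 4.57 to 9.79 CPM in the ablated mice and 2.98 to 8.01 CPM in the controls, with a log2 difference of 0.20 (SE 0.26, adjusted p = 0.849).

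**Figure D3:**
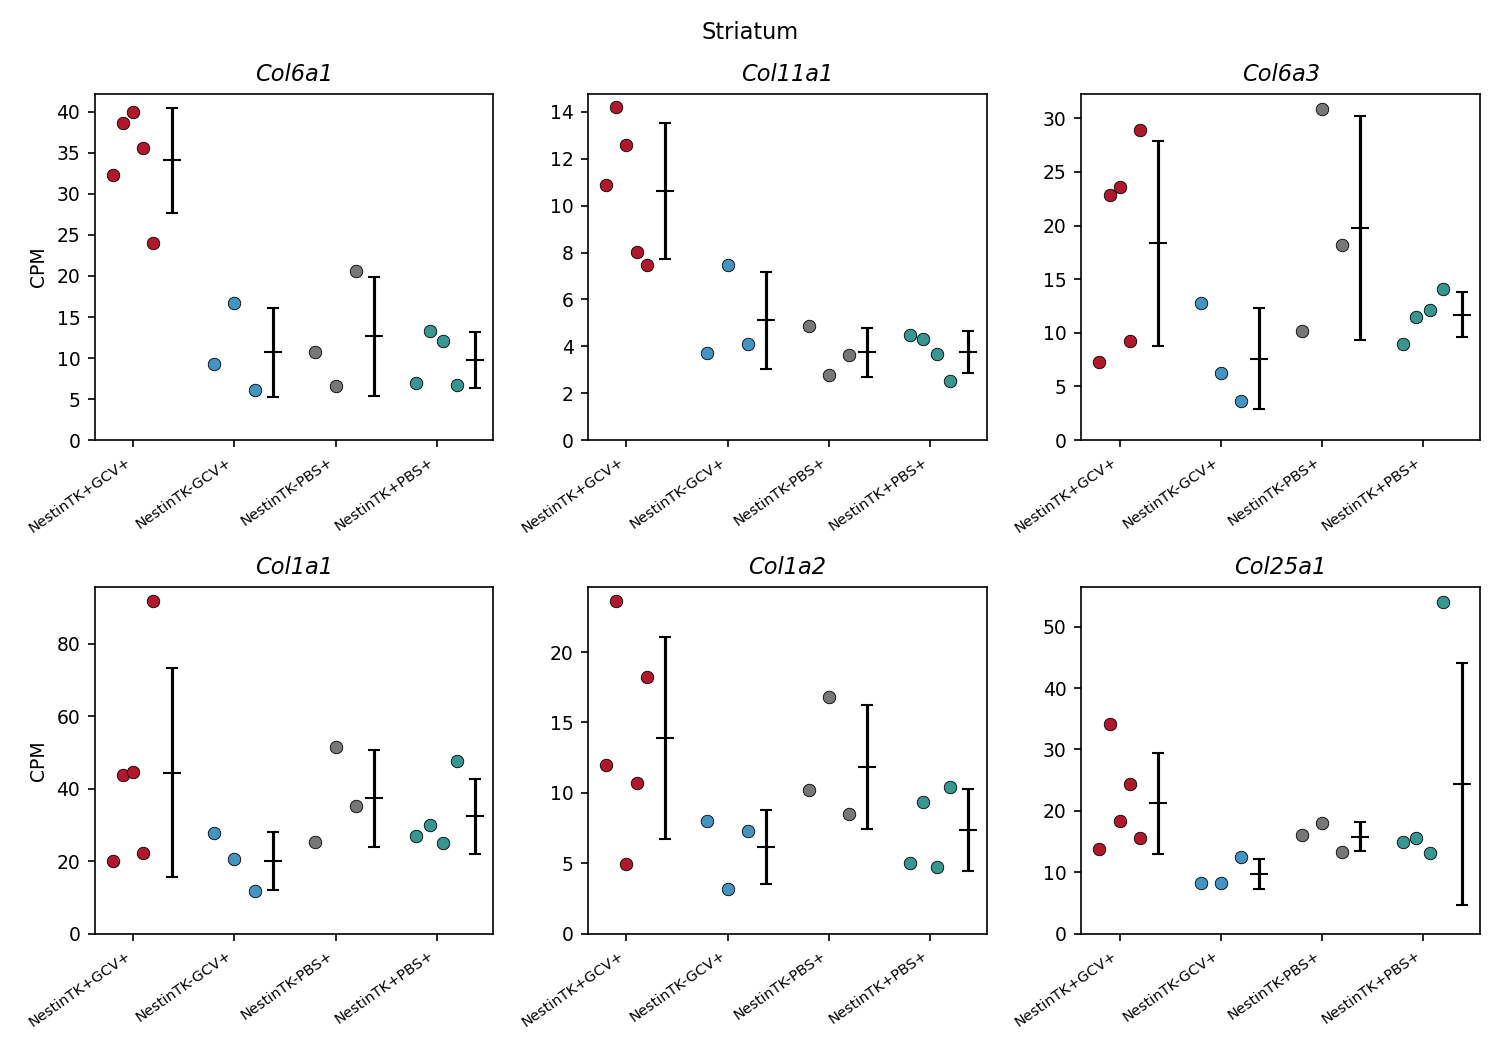
CPM of 6 collagen genes in the striatum by group, with a point per library, a short bar for the group mean and whiskers of 1 SD (n = 5, 3, 3 and 4 from left to right). The 5 NestinTK+GCV+ libraries lie from 24.0 to 40.0 CPM for Col6a1, above all 10 controls at 6.15 to 20.6 CPM, and they overlap the controls in the other 5 panels.

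The other 9 fibrillar members of the striatum were not called. Col1a1, the major chain of type I collagen, was at 20.0, 43.8, 44.5, 22.2 and 91.6 CPM in A1 to A5 and from 11.8 to 51.6 CPM in the controls, with a log2 difference of 0.53 (SE 0.298, adjusted p = 0.561). Col1a2 was at 12.0, 23.6, 4.95, 10.7 and 18.2 CPM and from 3.14 to 16.8 CPM, with a log2 difference of 0.69 (SE 0.322, adjusted p = 0.454 by edgeR). A5 for Col1a1, and A2 and A5 for Col1a2, lay above all controls, and the other ablated libraries lay within the control range. The 6 basement membrane members were not called either. Col4a1 had means of 12.0 ± 4.05 CPM (SD, n = 5) and 10.4 ± 3.26 CPM (SD, n = 10) with a log2 difference of 0.16 (95% interval -0.30 to 0.62), and Col4a2 had 10.6 ± 4.54 CPM (SD, n = 5) and 9.71 ± 4.57 CPM (SD, n = 10) with a log2 difference of 0.07 (95% interval -0.56 to 0.70). The endothelial markers summed to 215 to 278 CPM in the ablated mice and to 157 to 338 CPM in the controls.

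None of the 14 other members was called in the striatum. Col16a1, a fibril-associated collagen, was the most even member, with a coefficient of variation of 0.199. Its means were 11.5 ± 1.33 CPM (SD, n = 5) and 10.2 ± 2.37 CPM (SD, n = 10), and its log2 difference was 0.12 (SE 0.197, adjusted p = 0.882). Col25a1, a neuronal transmembrane collagen whose shed ectodomain binds amyloid, was at 13.8, 34.1, 18.3, 24.3 and 15.6 CPM in A1 to A5 and from 8.22 to 54.0 CPM in the controls, with T4 the highest, and its log2 difference was 0.25 (SE 0.323, adjusted p = 0.844). Col9a3 was at 4.19 to 7.79 CPM in the ablated mice and at 4.10 to 9.45 CPM in the controls other than T4, which had 17.4 CPM, with a log2 difference of -0.29 (SE 0.282, adjusted p = 0.766). Col26a1 was at 1.09, 4.12, 1.90, 1.78 and 2.92 CPM in A1 to A5 and from 0.725 to 4.79 CPM in the controls, with a log2 difference of 0.27 (SE 0.51, adjusted p = 0.908). Col8a1 reached 7.31 CPM in T4 and at most 2.60 CPM elsewhere.

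**Figure D4:**
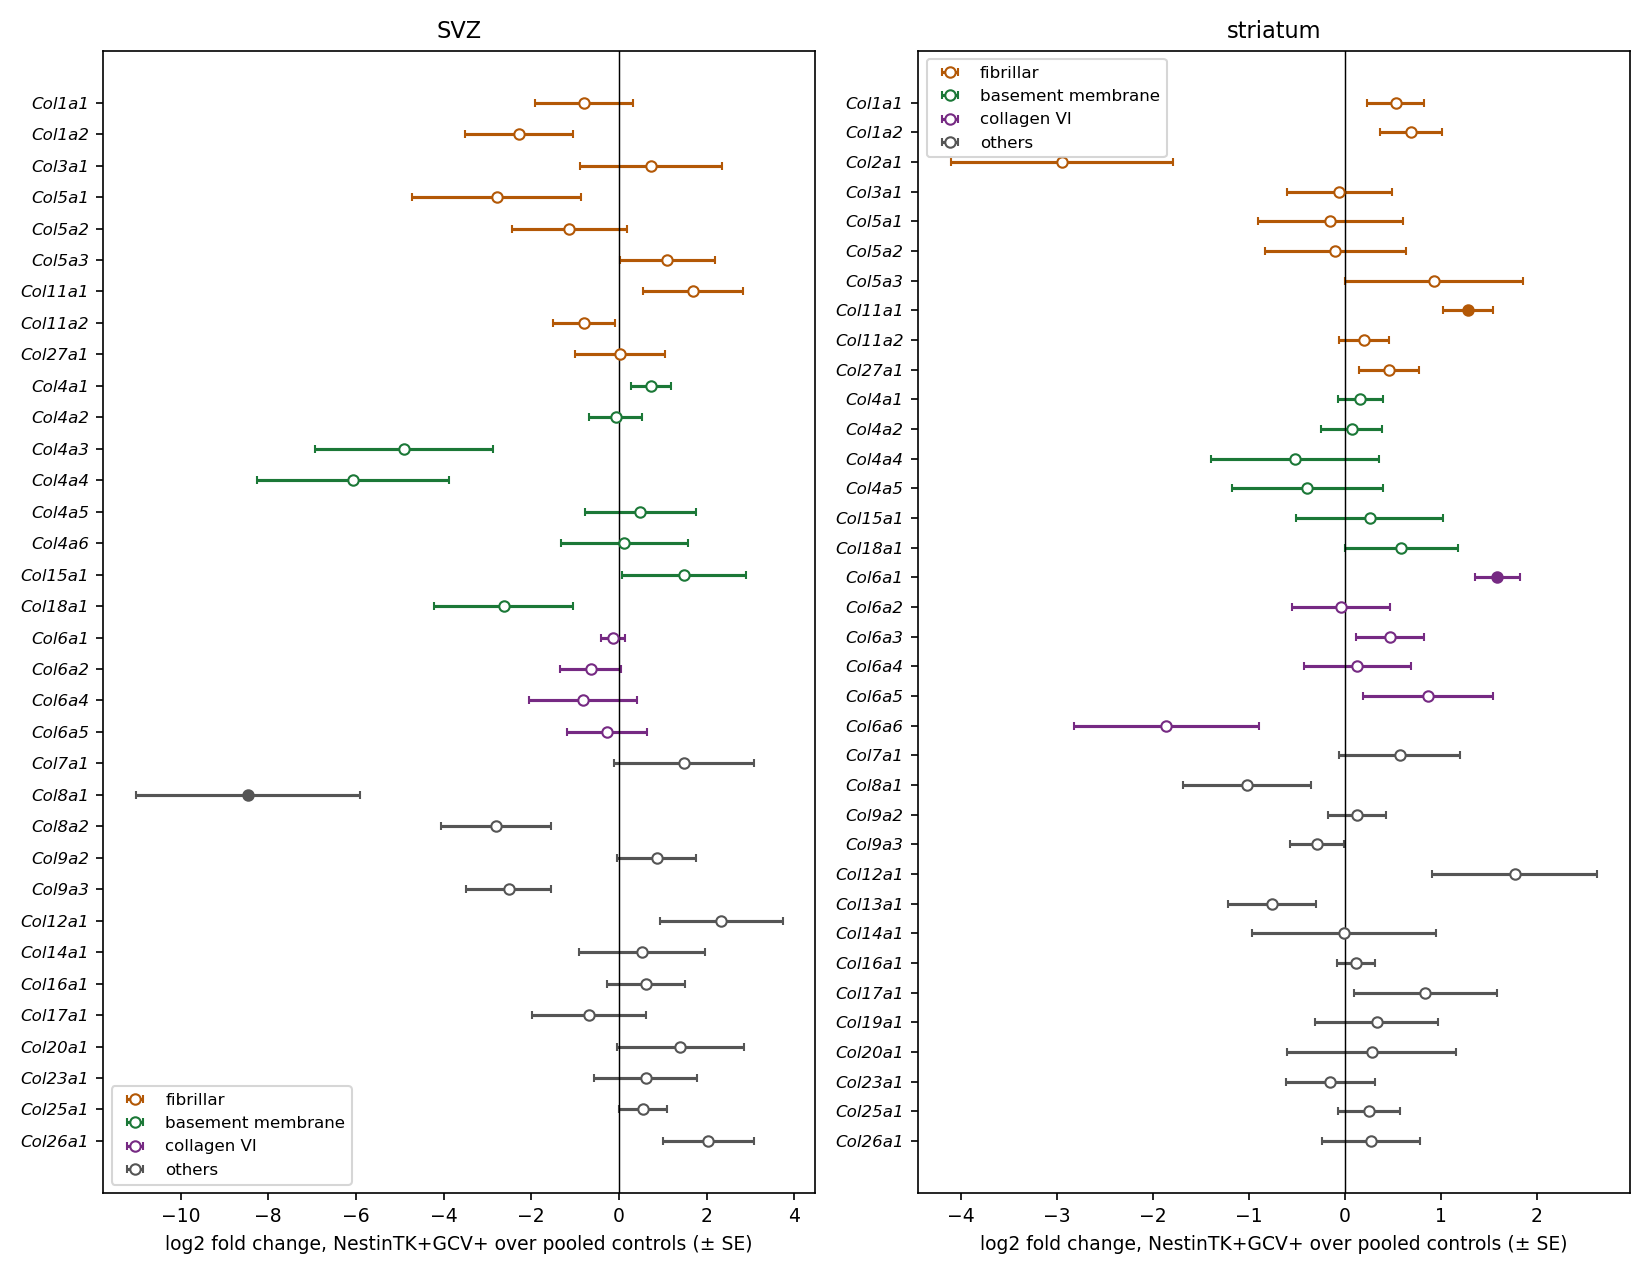
Log2 fold change of each collagen gene between the 5 NestinTK+GCV+ mice and the 10 pooled controls with 1 SE, by edgeR, for the SVZ on the left and the striatum on the right on axes of different range, coloured by class, with filled points for called genes. Filled points stand at Col8a1 in the SVZ and at Col6a1 (1.59) and Col11a1 (1.28) in the striatum, and the point of a gene near 0 counts in a group depends on the fit.

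By single comparisons, Col6a1 was called in the striatum in both that hold the ablated group. Ganciclovir in carriers called 2 of 36 members, Col6a1 and Col11a1, where 208 genes or 1.35% were called. The log2 differences were 1.75 (SE 0.312, adjusted p = 0.0326) for Col6a1 and 1.44 (SE 0.342, adjusted p = 0.0885 by edgeR) for Col11a1, and at an adjusted p under 0.05 Col6a1 passed, where 23 genes or 0.149% did. The transgene under ganciclovir called Col6a1 and Col1a1, where 324 genes or 2.10% were called. Col6a1 rose by 1.59 on the log2 scale (SE 0.339, adjusted p = 0.0131) and alone of the members had an adjusted p under 0.05, where 483 genes or 3.13% did. Col1a1 rose by 1.10 (SE 0.387, adjusted p = 0.12 by edgeR). Its mean was 44.4 ± 28.8 CPM in NestinTK+GCV+ mice (SD, n = 5) against 20.0 ± 7.94 CPM in NestinTK-GCV+ mice (SD, n = 3). Leaving out A2, A3, A5, G2, G3, P3, T1 or T2 each ended that call, 8 of 15 fits, and the log2 difference without A5 was 0.61. The Col1a1 call was also lost by DESeq2, by limma-voom and without the libraries with over 300 CPM of cortical markers. Col11a1 was at 0.96 (SE 0.36, adjusted p = 0.143 by edgeR) and was not called. These comparisons share the ablated mice.

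Among the control groups, ganciclovir in wild-type mice called 1 member, Col6a3, where 380 genes or 2.46% were called. It differed by -1.37 on the log2 scale, at 7.57 ± 4.7 CPM in NestinTK-GCV+ and 19.8 ± 10.4 CPM in NestinTK-PBS+ mice (SD, n = 3 each, adjusted p = 0.126 by edgeR). The call was lost without G2, G3, P2 or P3, by limma-voom and without the libraries with over 300 CPM of cortical markers. Col6a1 had 10.7 ± 5.4 CPM and 12.6 ± 7.21 CPM in these groups (SD, n = 3 each), a log2 difference of -0.18 with a 95% interval from -0.92 to 0.55. The transgene under saline called no member, where 128 genes or 0.830% were called. An unadjusted p under 0.05 was found for 0 members, and for 988 of all genes, by edgeR. Col6a1 differed there by -0.35 with a 95% interval from -1.04 to 0.34, and Col11a1 by 0.02 with an interval from -0.76 to 0.80.

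The interaction asks whether the effect of ganciclovir differs by genotype. In the striatum it called 3 of 36 members, where 505 genes or 3.28% were called: Col6a3 at 1.99 (SE 0.606, adjusted p = 0.101), Col6a1 at 1.94 (SE 0.486, adjusted p = 0.0578) and Col1a2 at 1.82 (SE 0.592, adjusted p = 0.128 by edgeR). For each, the difference between ganciclovir and saline was higher in carriers than in wild-type mice. For Col6a1 the call held in all 15 fits that left out a library, with 1.39 to 2.42 on the log2 scale. For Col6a3 it was lost without G3 or P2, and for Col1a2 without A2, A5, G2, P2, T1 or T3. That of Col6a3 was also lost by limma-voom and without the libraries with over 300 CPM of cortical markers. Col11a1 was at 0.94 (SE 0.535, adjusted p = 0.427).

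Slopes on the marker levels were called in the striatum for Col25a1 and Col9a3. On the meningeal level Col25a1 rose by 1.62 per doubling (SE 0.293, adjusted p = 0.00098), where 673 genes or 4.36% were called. On the choroid plexus level Col25a1 rose by 0.44 (SE 0.0944, adjusted p = 0.00629) and Col9a3 by 0.40 (SE 0.113, adjusted p = 0.0459 by edgeR), where 513 genes or 3.33% were called. All 3 slopes were lost without T4, where they were 1.25, 0.11 and 0.21 with an adjusted p of 0.999 each, and that of Col9a3 was lost in 9 of 15 such fits. Col6a1 had slopes of -0.57 (95% interval -1.45 to 0.32) on the meningeal and -0.22 (95% interval -0.48 to 0.05) on the choroid plexus level, and Col11a1 of -0.44 (95% interval -1.51 to 0.64) and -0.12 (95% interval -0.44 to 0.20). The meningeal markers summed to 51.0 to 79.2 CPM in the ablated mice and to 46.3 to 108 CPM in the controls, and the choroid plexus markers to 18.7 to 38.9 CPM and 13.8 to 1553 CPM. No marker of either list was at 0 in every library. The striatal choroid plexus level rests on 8 of the 12 markers, since Folr1, Kcnj13, Slc4a5 and Calml4 were below the filter there. Of the meningeal list, Lum, Slc47a1 and Foxc2 were below the filter in the striatum, and Slc22a6, Slc47a1 and Foxc2 in the SVZ.

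Because both tissues came from the same mice, the ablation effect was compared between them on the within-mouse difference of log2 CPM with limma. This test was added after the data were seen, and the tissues were prepared with different kits. Over 14197 genes tested in both tissues 311 or 2.19% were called and the median difference was 0.10, and of the 31 shared members 3 were called, with a median of 0.56. The log2 effect in the striatum minus that in the SVZ was 1.80 for Col6a1 (SE 0.354, adjusted p = 0.128 by limma). It was 3.04 for Col1a2 (SE 0.998, adjusted p = 0.351) and -2.50 for Col26a1 (SE 0.81, adjusted p = 0.341). For Col1a2 the log2 difference given above was below 0 in the SVZ and above 0 in the striatum, and neither was called. For Col6a1 the call held in all 15 fits that left out a mouse, at 1.67 to 2.02, and without the 3 mice with Ttr-rich SVZ libraries it was 1.72. For Col1a2 it was lost without those 3 mice, at 2.14, and in 10 of the 15 fits, those without A3, A4, A5, G1, P1, P2, P3, T1, T3 or T4. For Col26a1 it held without the 3 mice at -2.29 and was lost in 7 of the 15 fits, those without A1, A2, A3, A4, A5, P3 or T2.

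**Figure D5:**
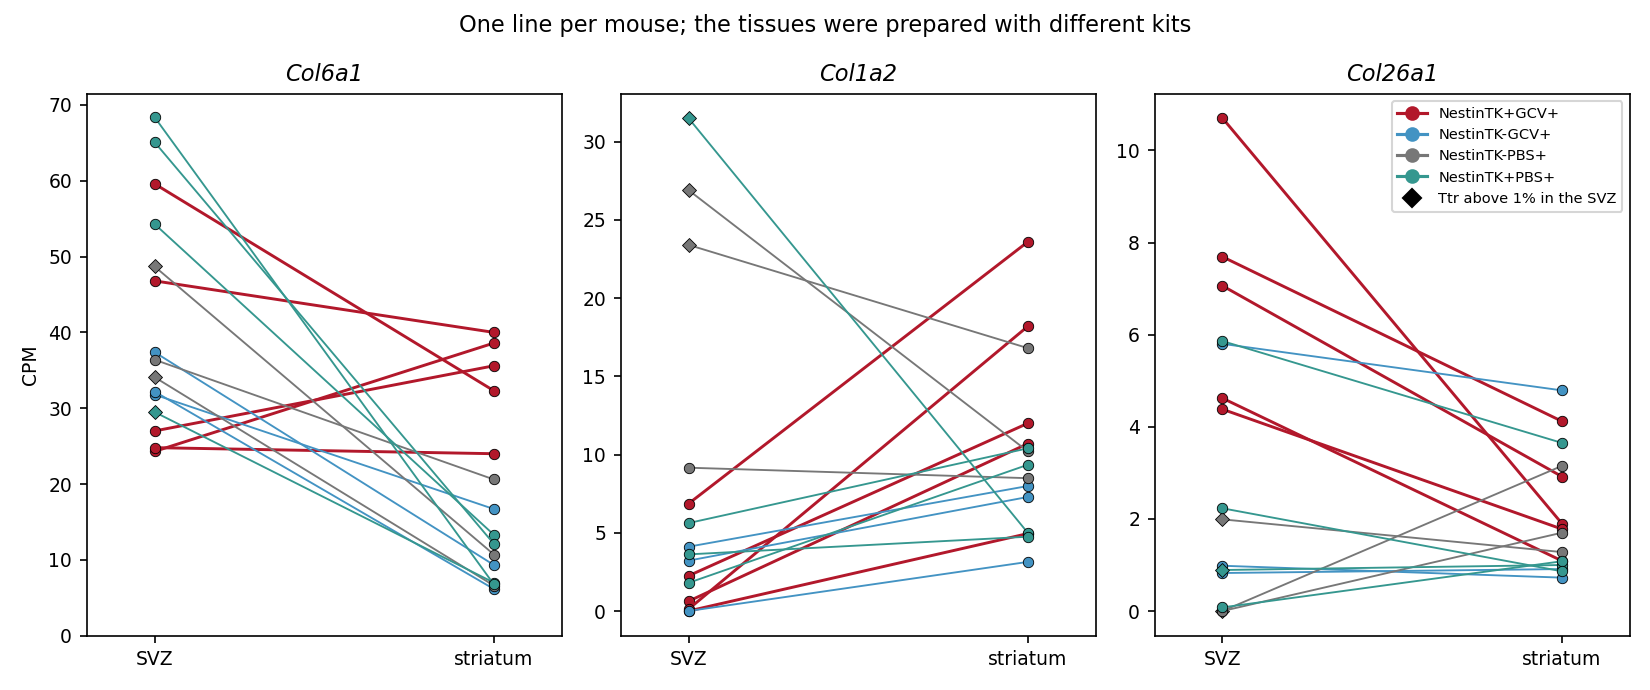
CPM of Col6a1, Col1a2 and Col26a1 in the SVZ and the striatum of each mouse, joined by a line, with thicker red lines for the 5 NestinTK+GCV+ mice and diamonds for the 3 mice whose SVZ library had Ttr above 1% of counts. For Col6a1 the control lines drop to 6.15 to 20.6 CPM in the striatum while the red lines end at 24.0 to 40.0 CPM.

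The genes that make and bind collagen gave few calls. Of 33 biosynthesis and processing genes, such as prolyl and lysyl hydroxylases, chaperones and propeptide proteases, 29 were tested in the SVZ and 27 in the striatum, and of 11 collagen receptors, which include integrin chains and discoidin domain receptors, 10 and 9. None of either list was called against the pooled controls in either tissue. By edgeR, 2 and 3 biosynthesis genes and 1 and 0 receptor genes had an unadjusted p under 0.05. Over all genes 1607 and 1619 did. The medians were -0.16 and -0.06 for biosynthesis genes in the SVZ and the striatum and -0.99 and 0.24 for receptors, against -0.03 and 0.00 for all genes. In the other comparisons P3h3, a prolyl 3-hydroxylase of collagen, was called in the striatum for the transgene under ganciclovir, at 1.93 (SE 0.501, adjusted p = 0.0347), and for the interaction, at 2.32 (SE 0.681, adjusted p = 0.093 by edgeR). Lox, the lysyl oxidase that crosslinks collagen, was called for the interaction in the SVZ (adjusted p = 0.942 by edgeR). It had 2.10 ± 3.57 CPM (SD, n = 5) in the ablated mice and counts in 1 of the 10 controls, so no fold is given. P4ha1, a prolyl 4-hydroxylase subunit, had a slope of -0.71 on the meningeal level in the striatum (SE 0.204, adjusted p = 0.0407 by edgeR). No receptor gene was called in any comparison.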

How the data were processed

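RNA of the dissected SVZ and striatum was sequenced as single-end reads on an Illumina sequencer. SVZ libraries were made with the SMART-Seq v4 low-input kit and amplified by PCR, and striatum libraries with the QuantSeq 3′ FWD kit, so the tissues were fitted apart. The deposited files hold counts of reads per gene, not normalized, which the authors made with Trimmomatic (0.36 in the submitters' processing notes), STAR 2.5.3a on mm10 (GRCm38) and featureCounts. The strand setting was not given in the sources used here, so reads of genes that overlap on opposite strands cannot be told apart. No count column lacked a sample label.

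Genes with CPM above 1 in 3 or more libraries were kept. They were fitted with edgeR 4.0.16 in R 4.3.3 (TMM factors, quasi-likelihood F test, Benjamini-Hochberg over all genes of the tissue). The ablated mice were set against the pooled controls in a fit of 2 groups, and single groups, the interaction and the slopes in a fit of 4 groups. limma 3.58.1 was used for the tissue difference (log2 CPM with a prior count of 2) and DESeq2 1.42.0 and limma-voom as alternatives. The scripts were tested on simulated data. P-values measure the spread between mice, 1 library each. Library numbers run from the ganciclovir to the saline mice in both tissues, so any effect of processing order and that of ganciclovir cannot be told apart.

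Members described library by library were those called in a comparison, the 2 with the highest mean CPM of each class and Col26a1. The remaining genes given with values were chosen after their values were seen. Members, classes, marker and pathway lists were chosen with earlier results of these data known. Positions and exon lengths are from GENCODE vM21 on GRCm38, and sequences and start sites from RefSeq.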

Additional observations from a re-analysis of the deposited data

Results flagged for a closer look

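Within groups of 4 or more libraries, a library was singled out where its gap to the next exceeded Dixon's 95% critical value for the range. This was the case for 7 of 69 groups checked, and chance gives about 1 in 20. The pooled controls include the NestinTK+PBS+ mice, so the groups overlap and a library can be singled out in both. In the SVZ, Col4a1 in G1 was the lowest of the pooled controls at 2.86 CPM, and Col4a2 in P3 the lowest at 3.8 CPM. In the striatum, Col16a1 in T2 was the highest both of the NestinTK+PBS+ mice and of the pooled controls at 16.2 CPM, Col25a1 in T4 was the highest of both at 54 CPM, and Col26a1 in T4 was the highest of the NestinTK+PBS+ mice at 3.65 CPM. T4 is the striatum library with the most choroid plexus and the fewest medium spiny neuron marker counts. The slopes of Col25a1 on both marker levels were called and were lost without T4, and those of Col26a1 were not called. The part of that tissue in the 2 genes was not tested apart from these slopes.

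The effect of ganciclovir in the striatum differed between carriers and wild-type mice for Col6a3 by 1.99, for Col6a1 by 1.94 and for Col1a2 by 1.82 on the log2 scale (adjusted p = 0.101, 0.0578 and 0.128 by edgeR). The ablation effect differed between the tissues, striatum minus SVZ, for Col1a2 by 3.04, for Col26a1 by -2.50 and for Col6a1 by 1.80 (adjusted p = 0.351, 0.341 and 0.128 by limma). All 6 passed the nominal threshold and none had an adjusted p under 0.05.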

How the results depend on the processing

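Col6a1 and Col11a1 in the striatum were called against the pooled controls, and in carriers between ganciclovir and saline, under every setting tried. Of the values of single genes under other settings, 81 kept their direction and call, 23 kept the direction without the call and 1 reversed: Col18a1 for ganciclovir in wild-type SVZ, at 3.55 without the Ttr-rich libraries. Of the counts of called members, 63 stayed within 1.5 times the main count and 24 did not.

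With no filter on low counts the members called went, in the SVZ, to 3 against the pooled controls, 4 for ganciclovir in carriers, 5 for ganciclovir in wild-type mice and 1 for the meningeal slope, and in the striatum to 5 for the transgene under ganciclovir and 1 for the choroid slope. By limma-voom they were 0 for ganciclovir in carriers and 1 for ganciclovir in wild-type mice in the SVZ, and 1 for the transgene under ganciclovir and 0 for ganciclovir in wild-type mice in the striatum. By DESeq2 4 members were called in the SVZ against the pooled controls, and 0 with the choroid level as a covariate. Without the Ttr-rich libraries all these SVZ counts were 0. Leaving out the libraries with over 300 CPM of cortical markers, an alternative chosen after seeing the data, gave in the SVZ 1 for ganciclovir in carriers, for ganciclovir in wild-type mice, for the transgene under ganciclovir, for the interaction and for the meningeal slope, and 2 for the choroid slope, and in the striatum 0 for ganciclovir in wild-type mice and 1 for the choroid slope. The cause was not tested.

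With each library left out in turn, the members called in the SVZ ran from 0 to 3 against the pooled controls, 0 to 3 for ganciclovir in carriers, 0 to 1 for the transgene under ganciclovir, 0 to 3 for ganciclovir in wild-type mice, 0 to 1 for the transgene under saline, 0 to 1 for the interaction and the meningeal slope, and 0 to 2 for the choroid slope. In the striatum they ran from 2 to 3 against the pooled controls, 2 to 3 for ganciclovir in carriers, 1 to 5 for the transgene under ganciclovir, 0 to 1 for ganciclovir in wild-type mice, 1 to 5 for the interaction, 0 to 2 for the meningeal slope and 0 to 3 for the choroid slope, and stayed at 0 for the transgene under saline. For the difference between tissues they ran from 1 to 3. In the SVZ 24 of 34 members were at 0 in at least 1 library, and in the striatum 18 of 36. No paired analysis was possible because, within a tissue, the groups compared share no mouse and no replicate number in the labels. The tissues share their mice and were compared within mice.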

Other observations

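2 collagen symbols that did not pass the filter in the SVZ were high in a single library, and both were chosen after their values were seen. Col6a3 was at 75.1 CPM in T4 and at most 3.47 CPM elsewhere, and Col9a1 was at 14.8 CPM in P3 and at most 2.19 CPM elsewhere. In the striatum Col6a3 was at 14.1 CPM in T4 and passed the filter, and Col9a1 was at 0 in P3.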
